A study of Homo sapiens with 4 samples.

Results

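The 9 interferon-stimulated genes ISG15, IFI6, IFI27, IFI27L2, IFIT1, IFIT2, IFIT3, IFITM1 and IFITM3 were followed by gene symbol among the 36601 genes of single-cell RNA libraries from BEAS-2B, an immortalised line of human bronchial epithelium. The list was chosen by its symbols and partly on the measured values, because IFI27L2 was among the genes with the largest ratio at 10 mGy, so the values of IFI27L2 against the control are a description. There were 4 libraries, 1 for each dose: an unirradiated control, and cells given 10 mGy, 100 mGy or 1 Gy of Cs-137 gamma rays. The irradiated cells were cultured for less than an hour before processing. All cells came from 1 line, no dose had a second library, and the 3 irradiated libraries share the same control, so the questions asked here are how the levels of these genes differed with dose and whether a few cells held their transcripts.

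Type I interferons bind the receptor pair IFNAR1 and IFNAR2, which signals through the kinases JAK1 and TYK2 to a complex of transcription factors in the nucleus. That complex binds a promoter element called the interferon-stimulated response element and switches on genes that act against viruses. Airway epithelium is known for a strong response of this kind to infection, and cytosolic DNA can set it off through the sensor CGAS and the adaptor STING, whose gene is listed as TMEM173.

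The libraries held 11111 to 21514 cell barcodes and 211752280 to 285806026 unique molecular identifiers (UMIs), each a counted transcript molecule. The pooled level of a gene is its UMIs per 1000000 UMIs of the library (CPM), and every interval given is a 95% interval for counting error only. The 10 mGy library stood apart with 41.4% of its barcodes under 1/3 of the library's median UMI count, against 19.6% (control), 27.4% (100 mGy) and 25.4% (1 Gy). Ribosomal protein genes took 19.97% and 21.8% of the UMIs at 10 and 100 mGy and 13.9% and 14.0% in the control and at 1 Gy. Between 76 and 134 barcodes were shared by any pair of libraries. Of the 9 markers of the line, VIM, a mesenchymal intermediate filament, was the highest at 2345 to 2702 CPM. The keratins KRT7, KRT8 and KRT18 were detected at 218 to 645 CPM and KRT17 at 65.8 to 107 CPM, while the epithelial markers CDH1 and KRT5 were below 0.05 CPM and EPCAM and KRT19 between 0.902 and 2.41 CPM. Of 13 markers of blood, endothelial, liver and islet cells, 0 reached a mean of 10 CPM, CD14 was the highest at 0.656 to 1.51 CPM, and CD3E, MS4A1 and INS were at 0.

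The promoter letters were read from RefSeq (GRCh38.p14), which had entries for 8 of the 9 genes and none for IFIT2. The core of the interferon-stimulated response element, which is GAAA, any 2 bases and GAAA again, searched on both strands of the 250 bases before each start, was found in 7 of these 8 genes. Over the whole table, 3.71% of 27305 genes and 3.02% of 35116 promoters of the same length held it. The windows below run from 15 bases before the first core to 15 bases after the last, 5′ to 3′ on the gene's strand, with each core in capitals and overlapping cores run together.

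ISG15, chr1:1013369-1013414, + strand: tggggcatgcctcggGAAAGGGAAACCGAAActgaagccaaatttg
IFI6, chr1:27672261-27672363, − strand: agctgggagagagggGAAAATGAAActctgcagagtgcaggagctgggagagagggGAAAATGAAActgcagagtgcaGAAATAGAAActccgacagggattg
IFI27, chr14:94110613-94110665, + strand: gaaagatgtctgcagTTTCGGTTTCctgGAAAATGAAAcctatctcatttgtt
IFIT1, chr10:89392492-89392544, + strand: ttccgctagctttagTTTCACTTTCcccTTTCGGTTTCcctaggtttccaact
IFIT3, chr10:89327826-89327899, + strand: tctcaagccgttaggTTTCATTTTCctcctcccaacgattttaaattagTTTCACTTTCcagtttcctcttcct
IFITM1, chr11:313985-314024, + strand: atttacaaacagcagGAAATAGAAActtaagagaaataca
IFITM3, chr11:320871-320927, − strand: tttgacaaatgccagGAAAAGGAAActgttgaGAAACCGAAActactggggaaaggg

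IFI6 had 3 cores, IFITM1 had 1, and ISG15, IFI27, IFIT1, IFIT3 and IFITM3 had 2 each. IFIT3 has a second listed start, which also had 2. IFI27L2, the gene with the largest ratio of the list, was the exception with 0 cores, and its 250 bases before the start are shown whole for that reason. A match to the letters is a description and not a bound site, and the lack of one says only that these letters are not in this window.

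IFI27L2, chr14:94129605-94129854, − strand: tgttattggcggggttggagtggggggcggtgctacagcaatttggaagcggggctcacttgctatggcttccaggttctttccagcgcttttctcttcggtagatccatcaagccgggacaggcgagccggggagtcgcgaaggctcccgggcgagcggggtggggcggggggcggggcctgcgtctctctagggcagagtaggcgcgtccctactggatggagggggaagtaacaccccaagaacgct

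The genes fell into 2 patterns. ISG15, IFI6, IFI27, IFI27L2, IFITM1 and IFITM3 were higher than in the control at both 10 and 100 mGy, by 1.51 to 2.24-fold, whereas IFIT1, IFIT2 and IFIT3 were higher at 10 mGy, by 1.34 to 1.77-fold, and lay within 1.2-fold of the control at 100 mGy. At 1 Gy 8 of the 9 genes lay within 1.2-fold of the control. The plot of levels by library shows both patterns.

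**Figure D1:**
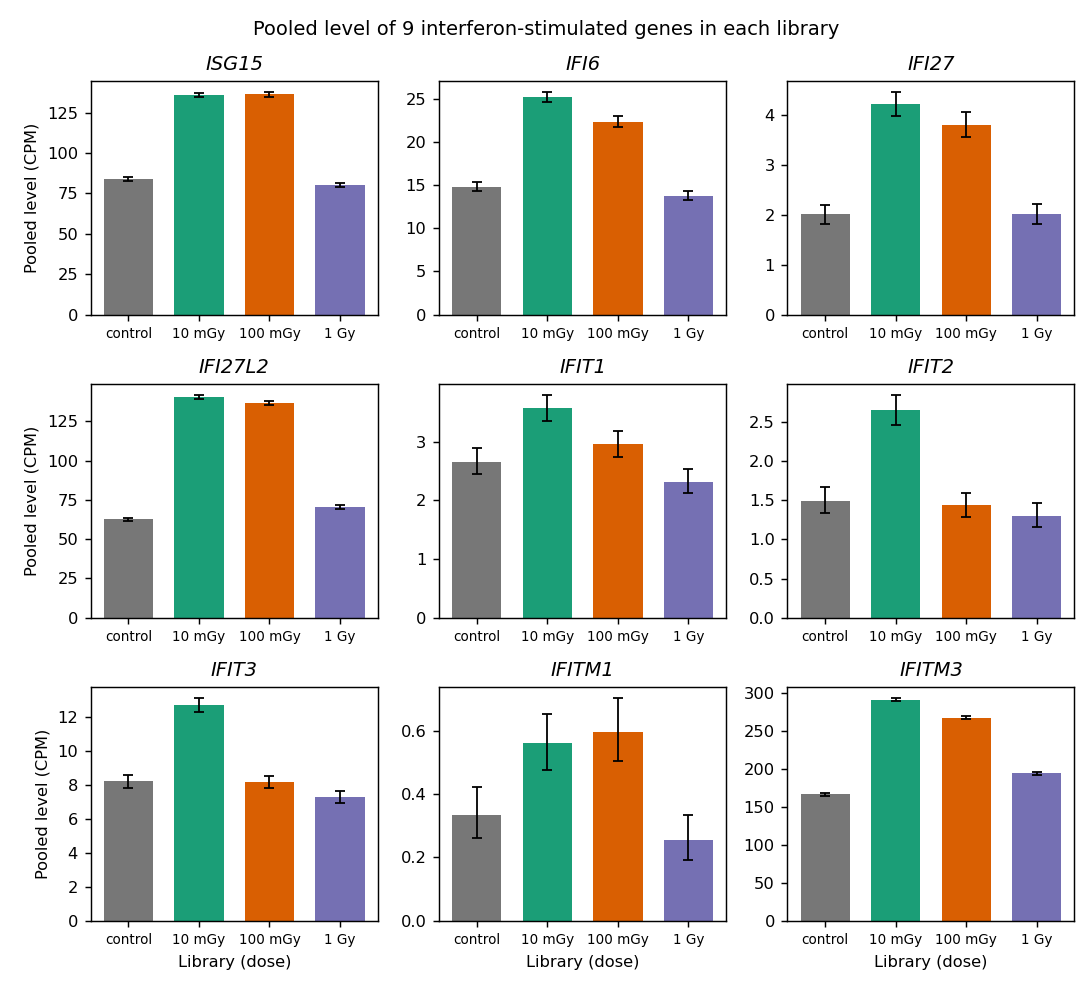
Pooled level in CPM (linear axes from 0, a different scale in each panel) of the 9 genes in the control, 10 mGy, 100 mGy and 1 Gy libraries, with 95% Poisson intervals for counting error. The middle 2 bars stand above the outer 2 for ISG15, IFI6, IFI27, IFI27L2, IFITM1 and IFITM3, and for the 3 IFIT genes the 10 mGy bar stands above the rest.

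ISG15 encodes a ubiquitin-like protein that is joined to other proteins during the interferon response. The control had 84.0 CPM, the 10 and 100 mGy libraries 136 CPM each and the 1 Gy library 80.3 CPM. The 10 mGy ratio to the control was 1.62 (1.59 to 1.65), the 100 mGy ratio 1.62 (1.59 to 1.65) and the 1 Gy ratio 0.956 (0.936 to 0.976). The low-dose libraries were indistinguishable within counting error, with a ratio of 1.00 (0.988 to 1.02) for 100 over 10 mGy.

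IFI6, IFI27 and IFI27L2 encode small hydrophobic membrane proteins of 1 family, of which IFI6 and IFI27 are strongly interferon-induced and act on cell survival and viral replication. For IFI27L2 the control had 62.7 CPM, the 10 mGy library 140.3 CPM, the 100 mGy library 137 CPM and the 1 Gy library 70.3 CPM. Set against the control, these were ratios of 2.24 (2.20 to 2.28), 2.18 (2.14 to 2.22) and 1.12 (1.10 to 1.15). Both low-dose libraries thus held over 2 UMIs of IFI27L2 for each 1 expected at the control's level, and it was the member with the largest ratio at either low dose.

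IFI27 was much sparser, at 2.002, 4.21, 3.79 and 2.002 CPM from the control to 1 Gy. The ratios of 2.10 (1.88 to 2.35) and 1.89 (1.69 to 2.13) went with 10 and 100 mGy. IFI27 had the second largest ratio at both low doses, and at 1 Gy the ratio was 1 (0.872 to 1.15). IFI6 had 14.8, 25.2, 22.4 and 13.8 CPM, which gave ratios of 1.70 (1.63 to 1.78), 1.51 (1.45 to 1.58) and 0.930 (0.884 to 0.979). IFI6 was also lower at 100 mGy than at 10 mGy, by a ratio of 0.887 (0.857 to 0.919), which became 1.02 when barcodes scaled to 10000 UMIs were averaged.

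IFITM1 and IFITM3 encode transmembrane proteins that block the entry of enveloped viruses. IFITM3 had 166, 291, 268 and 194 CPM from the control to 1 Gy, with ratios of 1.75 (1.73 to 1.77), 1.61 (1.59 to 1.63) and 1.17 (1.15 to 1.18). It was the only member whose interval at 1 Gy lay wholly above that of IFI27L2. IFITM1 was close to the limit of what the libraries could show, with 71, 160, 146 and 54 UMIs in all, or 0.334, 0.560, 0.597 and 0.255 CPM. Its ratios of 1.68 (1.26 to 2.25), 1.79 (1.34 to 2.41) and 0.764 (0.526 to 1.10) have wide intervals, and the blood cell marker CD14, also sparse, had a like profile at a higher level, with 0.846, 1.51, 1.41 and 0.656 CPM. The IFITM genes are close copies of each other and IFITM2 overlaps IFITM1 on the same strand, so the split of reads among them is uncertain.

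IFIT1, IFIT2 and IFIT3 lie side by side on chromosome 10, IFIT2 at chr10:89283694-89309276 on the + strand (GENCODE 29, GRCh38), and encode proteins that form complexes and bind viral RNA. IFIT3 had 8.20, 12.7, 8.17 and 7.27 CPM in the control, 10 mGy, 100 mGy and 1 Gy libraries. The 10 mGy ratio to the control was 1.55 (1.46 to 1.64) and the 100 mGy ratio 0.997 (0.934 to 1.06). The 10 mGy library alone stood above the others.

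IFIT2 repeated that order at a lower level, with 1.49, 2.65, 1.44 and 1.303 CPM. Here the 10 mGy ratio was 1.77 (1.55 to 2.03) and the 100 mGy ratio 0.964 (0.826 to 1.13). IFIT1, whose protein binds RNA with an unmethylated cap, had 2.66, 3.57, 2.96 and 2.32 CPM, and its ratios of 1.34 (1.21 to 1.49) and 1.11 (0.995 to 1.24) separated the low doses least. At 1 Gy the ratios of IFIT1, IFIT2 and IFIT3 were 0.872, 0.872 and 0.887. The gene LIPA overlaps all 3 on the opposite strand in GENCODE 29, and whether counting used strand is not given in the sources used here.

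**Figure D2:**
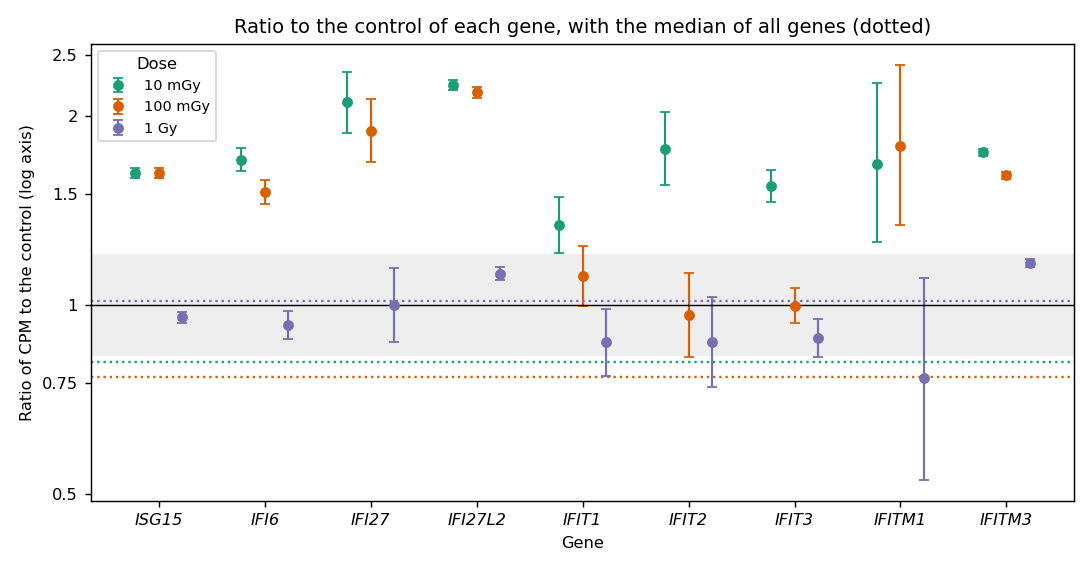
Ratio of CPM to the control (log axis) for each of the 9 genes at 10 mGy, 100 mGy and 1 Gy, with 95% intervals for counting error, the range within 1.2-fold in grey and the median ratio of all 8507 genes at each dose as a dotted line. The 100 mGy points of IFIT1, IFIT2 and IFIT3 lie in the grey range, and those of the other 6 genes lie above it.

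The step from 10 to 100 mGy does not use the control. It does use the 10 mGy library, whose values were part of why the list was picked, so its counts and percentiles are a description. This step set IFIT2 and IFIT3 apart from the rest, with ratios of 0.544 (0.478 to 0.618) and 0.645 (0.610 to 0.681). IFIT1 had 0.830 (0.753 to 0.913), which overlaps the interval of IFI6. For the 6 genes outside the IFIT family that ratio ran from 0.887 for IFI6 to 1.07 for IFITM1. Of the 8 members with a mean of at least 1 CPM, 3 were lower at 100 than at 10 mGy by 1.2-fold, all of them IFIT genes, against 18.7% of the 12879 genes at that floor. IFIT2 lay at percentile 0.598 of those genes and IFIT3 at percentile 1.92, IFIT1 at percentile 17.9. Across 7 other ways of scaling or selecting barcodes the ratio stayed between 0.518 and 0.575 for IFIT2 and between 0.570 and 0.681 for IFIT3. For IFIT1 it ran from 0.770 to 0.877, and it was lower by 1.2-fold in 3 of the 7, where IFIT2 and IFIT3 were in all 7. The count of 3 members lower thus rests on IFIT1 lying just past the threshold.

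Counts past the study's fold threshold of 1.2 need the background of the whole table beside them. With a floor of 10 CPM on the mean, 4 members were counted, ISG15, IFI6, IFI27L2 and IFITM3, and all 4 were higher at 10 mGy and at 100 mGy, where 15.4% and 14% of the 8507 genes were. The same doses had 53% and 58.9% of all genes lower, and 0 of the 4 members. At 1 Gy 0 of the 4 were higher or lower, against 1.28% and 0.846% of all genes. With a floor of 1 CPM, which brings in IFI27 and the IFIT genes, 8 of 8 members were higher at 10 mGy and 5 of 8 at 100 mGy, against 15.2% and 12.6% of all genes, and 0 of 8 were lower at 1 Gy, against 1.42%. IFITM1, under both floors, was higher at both low doses and lower at 1 Gy. Since the list was picked partly for the contrast of 10 mGy with the control, nothing is read from these counts.

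The median gene was itself lower at the low doses, by a log2 ratio of −0.30 for 10 mGy and −0.38 for 100 mGy against 0.02 for 1 Gy, while the median of the 4 members was 0.79, 0.69 and 0.05. A scaling that sets the median gene to 0 moved the ratios of the members upward at 10 and 100 mGy and slightly downward at 1 Gy, where ISG15 went from 0.956 to 0.945. IFI27L2 then had a ratio of 2.76 at 10 mGy and 2.84 at 100 mGy, and IFIT1, IFIT2 and IFIT3 at 100 mGy had 1.45, 1.26 and 1.301, so that their return to the control's level holds for CPM but not for this scaling. With totals that leave out ribosomal protein and mitochondrially encoded genes IFIT1 at 100 mGy was also past 1.2-fold, at 1.207. The IFIT genes were highest at 10 mGy under both.

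Gene length moved with these ratios. In the shortest 25% of the 8507 genes by joined exon length (131 to 3397 bases) the median gene had a log2 ratio of 0.15 for 10 mGy and 0.10 for 100 mGy, and 40.3% and 37.9% of genes were higher. In the longest 25% the medians were −0.59 and −0.70, and 2.97% and 2.40% were higher. ISG15 (941 bases), IFI6 (865), IFITM3 (1348) and IFI27L2 (1662) were all in the shortest 25%. Within it IFI27L2 ranked 6th of 2125 genes at 10 mGy, IFITM3 97th, IFI6 120th and ISG15 181st, where over all genes they ranked 7th, 123rd, 154th and 240th. The list was picked partly for the 10 mGy contrast, so these ranks and the percentiles that follow are a description. The part of length in the ratios was not tested.

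IFI27 (4147 bases), IFIT2 (4101) and IFIT1 (4613) are longer. At the floor of 1 CPM they belong to the second shortest 25%, with median log2 ratios of −0.21 for 10 mGy and −0.31 for 100 mGy. At 10 mGy IFI27, IFIT2 and IFIT1 lay at percentiles 99.8, 98.8 and 92.6 of that group. At 100 mGy IFI27 was at percentile 99.3 and IFIT2 and IFIT1 were at 72.3 and 84.7. IFIT3 (2640 bases) lay at percentile 88.4 of the shortest 25% at 10 mGy and 48.8 at 100 mGy.

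**Figure D3:**
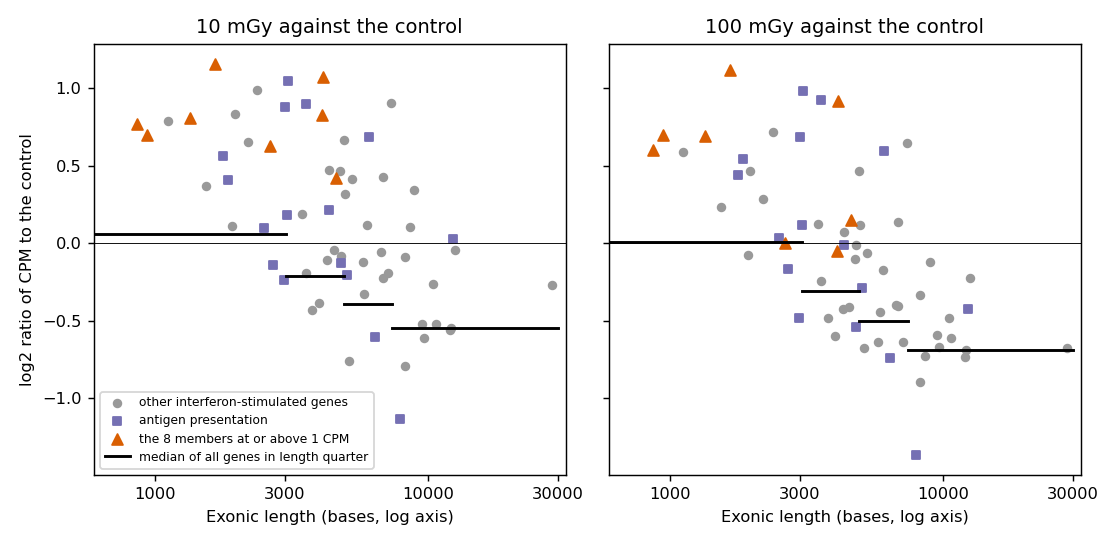
Log2 ratio of CPM to the control at 10 mGy (left) and 100 mGy (right) against joined exon length (log axis) for the 8 members at or above 1 CPM, the other interferon-stimulated genes and the antigen presentation genes, with the median of all genes in each 25% by length as a black line. The members lie on or above the line of their length group in both panels, and IFIT3 lies on it at 100 mGy.

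Whether a minority of cells held these transcripts was asked after each barcode was thinned to 5000 UMIs, which left 9060, 12561, 14271 and 11530 barcodes from the control to 1 Gy and left out 2051, 8953, 5679 and 3980 shallower ones. IFI27L2 was then detected in 27.2% (26.3 to 28.2) of control barcodes and, from low to high dose, in 49.9% (49.0 to 50.8), 48.1% (47.3 to 48.9) and 29.7% (28.9 to 30.5). Randomly scattered (Poisson) counts of the same mean would give 27.1%, 50.5%, 48.9% and 30.2%. The shares of barcodes with an IFI27L2 UMI were thus within 1 percentage point of Poisson scatter at each dose. Free RNA from other cells can also place UMIs in barcodes, and its part in these shares was not tested.

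The other better detected members were near to it as well, with IFITM3 the farthest. ISG15 was found in 34.8%, 48.8%, 49.3% and 33.7% of thinned barcodes, where Poisson counts would give 35.1%, 49.8%, 49.7% and 33.8%. IFITM3 was found in 56.8%, 75.8%, 73.6% and 61.8%, against 57.4%, 77.1%, 74.8% and 62.3%. Of the 36 shares of the 9 members, 4 had a binomial interval wholly below the Poisson share and 0 had one wholly above it. These were IFITM3 at 10 mGy (75.04 to 76.6%) and 100 mGy (72.9 to 74.3%) and, by smaller margins, ISG15 at 10 mGy (47.95 to 49.7%, against 49.76%) and IFI27L2 at 100 mGy (47.25 to 48.9%, against 48.94%). The Poisson share comes from the mean of the same barcodes, and these intervals leave that out. The count of 4 can therefore miss smaller departures from Poisson scatter. IFI6 was found in 7.32%, 12.2%, 11.03% and 6.60%, against 7.37%, 12.5%, 11.1% and 6.69%. With counts this near to Poisson, the share of barcodes with a UMI follows from the mean and adds no separate evidence of a change.

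IFIT3 was found in 4.18%, 6.15%, 3.93% and 4.04% of thinned barcodes, against 4.203%, 6.19%, 3.98% and 4.11% for Poisson counts. IFIT1 and IFIT2 were found in 0.715% to 1.66%, IFI27 in 1.04% to 2.04%, and IFITM1 in 0.174% to 0.309%. At such means nearly every carrying barcode has a single UMI, so few barcodes holding a gene is what sparse counting alone gives and is no sign of a separate class of cells. Without thinning, ISG15 was found in 68.7%, 63.1%, 65.4% and 57.1% of barcodes from the control to 1 Gy, whose median UMI counts were 19771, 13757, 12417 and 14277. The control thus had the highest share but not the highest CPM, and no order is read from unthinned shares. Unthinned, IFITM1 was found in 0.348% to 0.734% of barcodes, below the 0.877% to 1.95% with a UMI of CD14.

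The variance of UMIs per barcode over their mean, which is 1 for Poisson counts, was between 0.990 and 1.22 for every member in every library. Of the 4 members with at least 10 CPM, 0 reached 1.5 in any library, as did 1.01%, 0.882%, 1.2% and 0.823% of the 8507 genes from the control to 1 Gy, so that a count of 0 is near the background and is not a result about the members. The other 5 members had thinned means of 0.00174 to 0.0639 UMIs per barcode, at which this measure shows little. The median gene had 1.015 to 1.018 in the 4 libraries. The highest values among the members were 1.22 for IFI27 at 100 mGy, where 1 barcode had 7 UMIs, and 1.21 for IFIT1 in the control, where 1 barcode had 5. IFITM3 had 1.05 to 1.08, IFI27L2 0.992 to 1.05, ISG15 1.02 to 1.07 and IFI6 1.006 to 1.07. The 90th percentile of all genes was 1.063 at 10 mGy and 1.069 at 100 mGy. At 10 mGy IFITM3 (1.084), IFI6 (1.070) and ISG15 (1.065) lay above it, as did IFITM3 at 100 mGy (1.082). The 1% of barcodes with most UMIs of IFITM3 held 5.25% of its UMIs in the control and 4.04% at 10 mGy. This share depends on the mean, which was 0.852 and 1.47 UMIs per barcode, so no order is read from it.

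**Figure D4:**
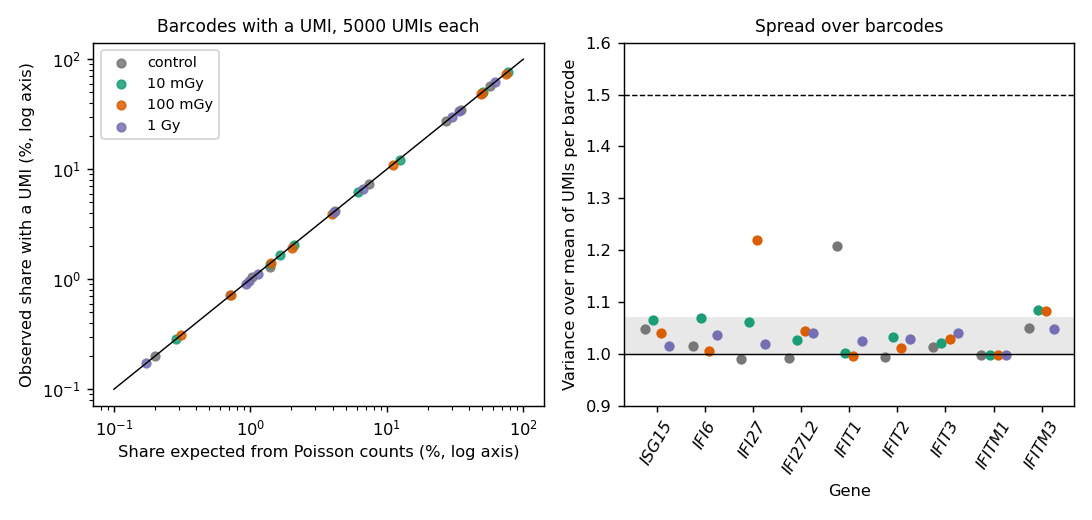
Left, observed share of barcodes with a UMI of each of the 9 genes in each library against the share expected from Poisson counts of the same mean, on log axes, with barcodes thinned to 5000 UMIs and the line of equality. Right, variance over mean of UMIs per barcode, with 1 (Poisson) as a solid line, 1.5 as a dashed line and the range from 1 to the highest 90th percentile of all genes in grey (the axis starts at 0.9). All 36 points on the left lie near the line, and on the right IFIT1 in the control and IFI27 at 100 mGy stand apart at 1.21 and 1.22.

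A small number of barcodes nevertheless held several IFIT UMIs at once. After thinning, barcodes with at least 3 UMIs of IFIT1, IFIT2 and IFIT3 together numbered 4, 3, 4 and 3 from the control to 1 Gy, that is 0.0442% (0.0120 to 0.113), 0.0239% (0.00493 to 0.0698), 0.0280% (0.00764 to 0.0718) and 0.0260% (0.00537 to 0.0760). Poisson counts would give 0.00417%, 0.0131%, 0.00379% and 0.00364%. These barcodes held 0.758% to 2.59% of the IFIT UMIs, so they do not carry the level of the genes in any library. With at least 2 UMIs there were 27, 68, 38 and 27 barcodes, holding 8.09% to 11.7% of the IFIT UMIs. These were 0.298%, 0.541%, 0.266% and 0.234% of barcodes, where Poisson counts would give 0.196%, 0.42%, 0.1845% and 0.1795%, so most of them follow from Poisson scatter.

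Without thinning, 5, 9, 3 and 2 barcodes had 5 or more IFIT UMIs from the control to 1 Gy, out of 11111, 21514, 19950 and 15510 barcodes in all. At 10 or more there were 2 in the unirradiated control and 0 in the irradiated libraries. The first of these 2, of 22819 UMIs, had 11 of IFIT1, 3 of IFIT2 and 4 of IFIT3, with 16 of ISG15 where 1.92 would follow from the library's mean. The second, of 24319 UMIs, had 10 of IFIT3, 3 of IFIT2 and 29 of ISG15, the most in any control barcode, where 2.04 would follow.

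Their 54 other interferon-stimulated genes together had 81 and 67 UMIs, against 34.4 and 36.6 from the library's mean, while IFI27L2 had 1 and 3. The leading 10 mGy barcode had 7 IFIT UMIs where 0.444 would follow from the mean, 6 of ISG15 against 3.20 and 73 of the other interferon-stimulated genes against 32.3. The leading 1 Gy barcode had 5 IFIT UMIs, 9 of ISG15 against 1.66 and 51 of the others against 31.04, and the leading 100 mGy barcode had 6 IFIT UMIs, 5 of ISG15 against 5.53 and 51 of the others against 49.1. Leaving out both control barcodes moved the control level of IFIT1 from 2.66 to 2.61 CPM and of IFIT3 from 8.20 to 8.13 CPM. In the 4 control barcodes with at least 3 IFIT UMIs after thinning, ISG15 was at 600 CPM against 86.2 CPM in the rest, a ratio of 6.96 (3.59 to 12.2) that rests on 12 UMIs. Those 12 UMIs lay in 3 barcodes. The first of the 2 control barcodes described above was among the 4, and the second may have been too. Before thinning the 4 had a median of 23569 UMIs, midway between the totals of these 2. The ratio is thus not independent of what is given for them above. With a minimum of 2 IFIT UMIs the ratio was 1.72 (1.05 to 2.66) on 20 UMIs, which include those 12. Both intervals treat UMIs of the same barcode as independent, so they are too narrow for a statement about cells. In the irradiated libraries the barcodes with at least 3 IFIT UMIs had 1, 2 and 0 ISG15 UMIs, and those with at least 2 had 42, 30 and 11, with ratios of 0.897 (0.646 to 1.21), 1.15 (0.775 to 1.64) and 0.988 (0.493 to 1.77). The ISG15 interval lay above 1 in the control alone, where both ratios rest largely on the same few barcodes. The difference between libraries was not tested. At the minimum of 2, IFI6 had a ratio of 2.48 (1.24 to 4.45) on 11 UMIs at 100 mGy. In the other libraries the IFI6 ratios were 1.45 (control), 0.550 (10 mGy) and 1.07 (1 Gy), with intervals that include 1. At the minimum of 3, IFI6 had 0 UMIs in the 100 mGy barcodes, so nothing is read from the 2.48.

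Barcodes of low UMI count had more IFITM3 per UMI than the others in every library, with ratios of 1.27, 1.26, 1.21 and 1.68 from the control to 1 Gy. ISG15 had ratios of 1.13 to 1.295 there. IFI27L2 had 1.06, 1.13 and 1.05 and, at 1 Gy, 1.43, and IFI6 had 0.608 (0.533 to 0.692) at 10 mGy. Of all 8507 genes, 10.3% to 12.9% per library were higher by 1.2-fold in these barcodes and 14.65% to 26.7% lower. These barcodes held 2.16% to 5.41% of the UMIs, and the ratios of the 4 members counted at 10 CPM were as large without them, at 1.61 to 2.23 at 10 mGy and 1.51 to 2.18 at 100 mGy.

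The ligands of the pathway were almost absent. Of 21 interferon genes 4 had any UMI, and IFNB1, the first interferon that epithelial cells usually make, had 0 in every library, which allows up to 0.0105 to 0.0142 CPM. IFNE, an interferon of epithelia that is made without infection, was the one with most UMIs, at 1.62, 0.812, 0.569 and 1.59 CPM. It was thus lower at the low doses, by ratios of 0.501 (0.422 to 0.593) and 0.351 (0.286 to 0.428).

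For the pathway lists the background at 10 CPM is the one given above, 15.4% of all genes higher and 53% lower at 10 mGy, and 14% and 58.9% at 100 mGy. Of 5 receptor chains with at least 10 CPM, 1 was higher and 3 were lower at 10 mGy, near those shares, and IFNAR1 had 79.3, 59.6, 54.9 and 79.4 CPM. Of 6 kinases and transcription factors, 0 were past 1.2-fold at 10 mGy and 2 were lower at 100 mGy. At 1 Gy 1 was higher, TYK2 with a ratio of 1.209, where 1.28% of all genes were. JAK1, the kinase with most UMIs, had 169, 147, 141 and 162 CPM.

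Of 9 sensors and adaptors 3 were counted, CGAS, MAVS and TBK1, and all 3 were lower at 10 and 100 mGy, as were most genes. At a floor of 1 CPM, 4 of 6 were lower and 1 higher at 10 mGy and 5 were lower and 0 higher at 100 mGy, where 53.4% and 60.9% of all genes at that floor were lower. CGAS, the sensor of cytosolic DNA, had ratios of 0.643, 0.600 and 0.902 in order of dose, and MAVS, the adaptor of the RNA sensors, 0.538, 0.470 and 1.13. Of 6 inhibitors 4 were counted and were lower at both low doses, where 53% and 58.9% of all genes were, among them SOCS3, which blocks JAK kinases, with 0.568, 0.545 and 0.957, and PIAS1, a SUMO ligase, with 0.766, 0.765 and 1.06.

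The other interferon-stimulated genes, 26 of 54 with at least 10 CPM, were split: 9 were higher and 11 lower at 10 mGy, 4 higher and 14 lower at 100 mGy, and 0 higher and 1 lower at 1 Gy. At 10 mGy the higher share was above that of all genes, 15.4%, and the lower share below theirs, 53%. The shares at 100 mGy are near those of all genes, 14% higher and 58.9% lower. At 1 Gy 1.28% of all genes were higher and 0.846% lower. The median log2 ratio of the 26 genes was −0.15, −0.37 and 0.01, against −0.30, −0.38 and 0.02 for all genes. The higher ones named by the rule had 1119 to 2380 bases of joined exons. IFI27L1, the neighbouring relative of IFI27L2, had ratios of 1.98, 1.64 and 1.03, IFI35 1.78, 1.38 and 1.02, and BST2, which tethers budding viruses, 1.73, 1.51 and 0.996.

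IFITM2, the member of this list with most UMIs, had 1.29, 1.18 and 1.09. Lower at the low doses were ZC3HAV1, an antiviral RNA-binding protein with 0.577, 0.538 and 0.975, and PNPT1, a mitochondrial RNA nuclease with 0.590, 0.626 and 0.944. At a floor of 1 CPM, 16 of 39 of these genes were lower at 100 than at 10 mGy and 0 were higher, with a median log2 ratio of −0.21 against −0.09 for all genes, and 18.7% of all genes were lower. Examples, named after their values were seen, are HERC5, which attaches ISG15 to proteins, at 0.677, and MX1, a GTPase against influenza virus, at 0.559.

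Antigen presentation genes, 15 counted, were higher in 6 cases and lower in 2 at 10 mGy, and higher in 6 and lower in 6 at 100 mGy, against 15.4% higher and 53% lower and then 14% and 58.9% of all genes. The higher ones named by the rule were the immunoproteasome subunits PSMB8, with 1.84, 1.61 and 1.05, and PSMB9, with 2.06, 1.97 and 0.916, the proteasome activator PSME2, with 1.86, 1.90 and 0.994, and B2M, the light chain of class I molecules, with 1.61, 1.51 and 1.06. ERAP1, which trims peptides for class I molecules, was lower, with 0.455, 0.387 and 0.975.

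The genes whose 3 log2 ratios to the control lay nearest to those of IFI27L2 over the 4 libraries were C12orf57, PET100, PIN4, TSTD1 and NDUFA6, at Euclidean distances of 0.09, 0.12, 0.12, 0.14 and 0.15. C12orf57 had ratios of 2.20, 2.13 and 1.06 and NDUFA6, a subunit of respiratory complex I, 2.03, 2.12 and 1.09. These 5 genes are outside the interferon lists, as are nearly all of the 8507 genes, so nothing is read from that.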

How the data were processed

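Each library was deposited by the authors as a matrix of UMI counts, genes by barcodes, written by Cell Ranger 7.0.1 according to the file headers. The submitters' processing notes also name STAR and GRCh37, while annotation, intronic reads and strand are not stated there. No filter on barcodes was applied, and doublets were not called.

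Counts were summed per library and scaled to CPM. Intervals on levels are exact Poisson, on ratios exact conditional binomial, and on shares exact binomial (Clopper-Pearson). They cover counting error only. With 1 library per dose no test was made. Genes needed a mean of 10 CPM (8507 genes), or 1 CPM (12879 genes, a floor chosen after seeing the data). Thinning to 5000 UMIs was done without replacement. Exon lengths came from GENCODE 29 by gene identifier (99.9% of tested genes). Ratios and variance over mean were tested on simulated data.

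The members and lists were chosen with earlier results of these data known. Named were the 9 members, the gene of each list with most UMIs and the 5 genes nearest to IFI27L2. Up to 12 genes of the interferon lists past 1.5-fold at 10 CPM or more were named too. The rule also covered the 15 leading genes of barcodes with IFIT UMIs, of which only the first 3 are given. Alternatives were the mean of barcodes scaled to 10000 UMIs, median ratio scaling, totals without ribosomal protein and mitochondrially encoded genes, leaving out barcodes of low or very high UMI count (under 1/3 or over 3 times the median), thinning to 5000 or 2000 UMIs, barcodes of 200 or more genes with no more than 20% of UMIs from mitochondria, 1.5-fold, no floor, and minimums of 2 or 5 IFIT UMIs. Python 3.11.15, numpy 2.4.6, scipy 1.17.1 and pandas 2.3.3 were used.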

Additional observations from a re-analysis of the deposited data

How the results depend on the processing

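No paired analysis was possible because each dose has 1 library and no test was made. The missing replicates limit every comparison with the control, and depth also limits IFITM1, IFIT2 and the barcodes with several IFIT UMIs. The number of members higher by 1.2-fold at 10 mGy was 4 with the floor of 10 CPM, 8 with a floor of 1 CPM, chosen after seeing the data, and 9 with no floor. At 1 Gy, 2 members were higher (IFI27L2 and IFITM3) when barcodes scaled to 10000 UMIs were averaged, and 1 was lower (IFITM1) with no floor, both against 0. Fewer or more genes counted is what a floor does, and the cause of the change under averaging was not tested. The ratio of IFI27L2 at 10 mGy was 2.24, 2.38 with totals that leave out ribosomal protein and mitochondrially encoded genes, and 2.76 with median ratio scaling. The ratio of IFIT2 at 1 Gy was 0.872 and became 1.29 after thinning to 5000 UMIs, where it rests on 107 UMIs, and 0.697 when barcodes were averaged. IFIT1 at 10 mGy ran from 1.202 to 1.66. Thinning to 2000 in place of 5000 UMIs lowered the 36 shares of barcodes with a UMI.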

Other observations

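In the 14 barcodes with at least 3 IFIT UMIs after thinning, 348 genes other than the IFIT genes had at least 30 UMIs and were ranked by their ratio to the remaining barcodes, with the libraries weighted equally. G0S2, a regulator of fat breakdown, led with a ratio of 2.81 on 39 UMIs, followed by the matrix glycoprotein SPARC with 2.09 on 32 UMIs and UQCR11, a subunit of respiratory complex III, with 1.62 on 43 UMIs. The minimum of 30 UMIs leaves out genes of low level, ISG15 among them. The ranking therefore cannot show whether the interferon lists as a whole were higher in these barcodes. Summed by list, the other interferon-stimulated genes had ratios of 1.72, 1.44, 1.39 and 1.10 from the control to 1 Gy. Their interval lay above 1 in the control alone (1.29 to 2.26). For the antigen presentation genes the ratios were 1.265, 1.06, 1.36 and 1.02, with an interval above 1 at 100 mGy alone (1.06 to 1.72). The remaining lists had intervals that include 1. All these intervals treat UMIs of the same barcode as independent. Of the G0S2 UMIs, 17 were in the 3 barcodes at 10 mGy, a ratio of 6.43.

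The motif of the gamma-activated site, TTCNNNGAA, an element of the response to interferon gamma, was found in the 250 bases before the start of 2 of the 8 members with an entry, IFI27 and IFITM1, and in 8.09% of all genes with an entry. Among the other interferon-stimulated genes, 23 of 46 with an entry held the core of the interferon-stimulated response element. Of those with at least 1 CPM, the 18 with a core had a median log2 ratio of 100 over 10 mGy of −0.21 and the 18 without one of −0.23.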
